A study of Homo sapiens with 2 samples.

Results

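The ZNF genes are the numbered symbols of the largest group of human zinc finger genes, and those well expressed in A549 cells are described here. Members were the genes whose symbol is ZNF plus a number, with at most 1 letter A to E after it, and whose mean over both libraries was at least 3 RPKM (reads scaled to the length of the gene and to the size of the library). The rule left out antisense, pseudogene and fusion genes. It held 513 symbols, of which 256 reached a mean of 3 RPKM, 110 had a mean of 1 to 3 RPKM and 147 had a mean under 1 RPKM, including 45 listed at 0 in both libraries. The members were thus chosen by their mean RPKM over both libraries, and their levels are given as a description. RNA-seq was made from A549, an established human lung adenocarcinoma line, in 2 states: cells overexpressing MYOCD (labelled MYOCD) and cells with the wild-type genotype and no treatment (labelled WT). MYOCD encodes myocardin, a coactivator of the serum response factor SRF in smooth and cardiac muscle. Both groups were grown in DMEM with serum. The labels give 1 library in each group, so no value has a replicate error, no test was made and every difference is one between 2 libraries. The sources used here do not say how MYOCD was delivered, for how long, whether the cells were a clone or a pool, or whether the WT cells carried an empty vector. The WT values stand under the heading A549_rtt, which a key in the table equates with WT and which no source explains further.

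Most ZNF proteins bind DNA with rows of C2H2 zinc fingers, in which a pair of cysteines and a pair of histidines hold a zinc ion. Many also carry a KRAB domain at the amino end, which recruits TRIM28 and through it the histone methyltransferase SETDB1 and HP1 proteins, and so silences transposable elements and genes near the bound site. A smaller group carries a SCAN domain, through which these proteins pair with each other. KRAB zinc finger genes arose largely by local duplication and lie in clusters, many of them on human chromosome 19. ZNF proteins without a KRAB domain include activators at promoters, corepressor subunits and proteins that act on RNA, ribosomes or the mitotic spindle.

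The deposited values summed to 880876 RPKM in the MYOCD library and 886700 RPKM in the WT library, and the mitochondrial genome gave 25.5% and 26.3% of those sums. The MYOCD gene stood at 48.6 RPKM in the MYOCD library and 0.304 RPKM in the WT library. The epithelial label was checked with KRT8 (1059 RPKM in MYOCD, 1523 in WT), KRT18 (1134 RPKM in MYOCD, 1647 in WT) and CDH1 (35.8 RPKM in MYOCD, 35.0 in WT). The rest of the 5 listed epithelial markers were low, KRT19 at 3.24 RPKM in MYOCD and 2.94 RPKM in WT. EPCAM was at 2.57 RPKM in MYOCD and 0.889 RPKM in WT. Of 10 markers of alveolar type II cells, 8 were under 1 RPKM in both libraries, SFTPC and SFTPA2 were listed at 0 in both, and ABCA3 was the highest (6.72 RPKM in MYOCD, 5.55 in WT). Of 12 markers of blood, endothelial cells and fibroblasts, 11 were under 1 RPKM in both libraries, PTPRC, CD3E, VWF, CDH5 and DCN were listed at 0 in both, and the list summed to 14.98 RPKM in MYOCD and 3.82 RPKM in WT, of which COL1A1 made 14.3 RPKM in MYOCD and 3.05 RPKM in WT. In bulk RNA a lower level per cell and fewer cells that express a gene cannot be told apart.

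Well expressed ZNF genes were genes of low abundance. The 256 members ranged over 0.987 to 147 RPKM in the MYOCD library, with a median of 6.52, and over 0.986 to 157 RPKM in the WT library, with a median of 7.18. Protein-coding genes with a mean of at least 3 RPKM had medians of 18.6 RPKM in MYOCD and 18.7 RPKM in WT. The members together summed to 2605 RPKM in the MYOCD library (0.296% of all RPKM) and 2847 RPKM in the WT library (0.321%). By their mean, 175 members (68.4%) lay at 3 to 10 RPKM, 72 (28.1%) at 10 to 30 RPKM and 9 (3.52%) at 30 RPKM or more. Just inside the threshold were ZNF653 (mean 3.08 RPKM), ZNF614 (3.07 RPKM) and ZNF2 (3.03 RPKM), and just outside it were ZNF484 (2.99 RPKM), ZNF530 (2.99 RPKM) and ZNF548 (2.97 RPKM). ZNF48 was the 1 symbol on several rows, and its row with the higher mean was used.

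Of the 10 members with the highest mean, 1 has a KRAB domain, the domain that recruits silencing proteins. ZNF207, also called BuGZ, a spindle protein that binds the mitotic checkpoint protein BUB3, led with 147 RPKM in MYOCD and 157 RPKM in WT. ZNF146, a protein made almost wholly of zinc fingers, followed with 89.8 RPKM in MYOCD and 123 RPKM in WT. The short protein gene ZNF706 had 70.8 RPKM in MYOCD and 69.6 RPKM in WT. These first 3 held their order in both libraries, and the libraries differed by less than 1.5-fold for each. ZNF638, which takes part in splicing and in silencing of unintegrated retroviral DNA, had 60.0 RPKM in MYOCD and 59.1 RPKM in WT. ZNF664 had 49.7 RPKM in MYOCD and 42.5 RPKM in WT. ZNF655, the KRAB gene among them, had 45.3 RPKM in MYOCD and 41.8 RPKM in WT. The remaining 4 of the 10 highest means were ZNF511 (33.8 RPKM in MYOCD, 37.5 in WT), ZNF281 (27.4 RPKM in MYOCD, 37.5 in WT), ZNF280D (25.3 RPKM in MYOCD, 35.7 in WT) and ZNF580 (32.2 RPKM in MYOCD, 27.0 in WT). None of the 10 differed by 1.5-fold, as the plot of members by library shows.

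**Figure D1:**
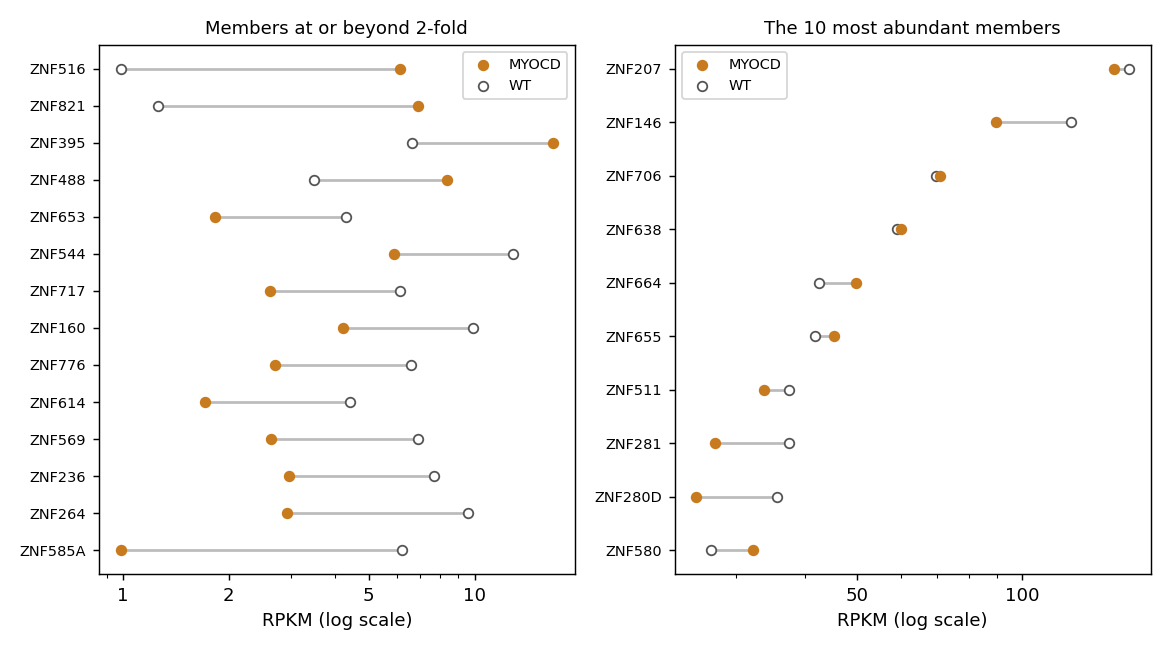
RPKM (log scale) of ZNF members in the MYOCD library (filled) and the WT library (open): left, the 14 members that differed by 2-fold or more, ordered by log2 ratio, and right, the 10 members with the highest mean. Of the 14, 4 stood higher in MYOCD and 10 stood lower, while the gaps of the 10 most abundant members are all under 1.5-fold.

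Across the 256 members the balance between the libraries lay towards lower values in MYOCD. The log2 ratio, log2((MYOCD RPKM + 0.5)/(WT RPKM + 0.5)), had a median of -0.10 over the members, with 104 above 0 and 152 below 0, beside a median of 0.00 over all 10389 protein-coding genes with a mean of at least 3 RPKM. At 2-fold or more, 4 members stood higher in MYOCD and 10 stood lower, beside 2.11% of those protein-coding genes higher and 2.04% lower. At 1.5-fold or more, 17 members (6.64%) stood higher and 40 (15.6%) stood lower, beside 6.67% higher and 6.67% lower. Over all 12718 genes of any type with that mean, 4.08% stood higher and 4.76% lower at 2-fold, and 8.74% higher and 9.69% lower at 1.5-fold. The share of members higher by 1.5-fold was thus near the background of protein-coding genes pooled over these levels, and the share lower was above it. That background depends on level. At a mean of 3 to 5 RPKM 13.5% of protein-coding genes stood higher by 1.5-fold and 13.0% lower. These shares were 10.1% and 9.93% at 5 to 10 RPKM and 4.88% and 4.99% at 10 RPKM or more. Beside the shares at 3 to 10 RPKM, where 68.4% of members lay, 6.64% higher is less and 15.6% lower is a smaller excess. Some members reached the mean of 3 RPKM only through 1 library. The lower of the 2 values was under 3 RPKM in 30 members, among them 8 of the 10 lower and 2 of the 4 higher by 2-fold, and 12 of the 40 lower and 6 of the 17 higher by 1.5-fold. A gene that passes through 1 library must differ, so the counts at 2-fold describe the members and no more. Ratios were also centred on 11 genes listed as steady references, whose median ratio was -0.09, with 7 below 0 and 4 above. Not all were steady here, since CHMP2A stood lower by 1.5-fold (58.6 RPKM in MYOCD, 90.6 in WT). With this reference-gene centring the splits of the members became 6 higher and 7 lower at 2-fold and 24 higher and 33 lower at 1.5-fold. The median of the members became -0.01. The exons of 133 members overlap exons of another gene on either strand, and no source used here says whether the counting used strand.

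**Figure D2:**
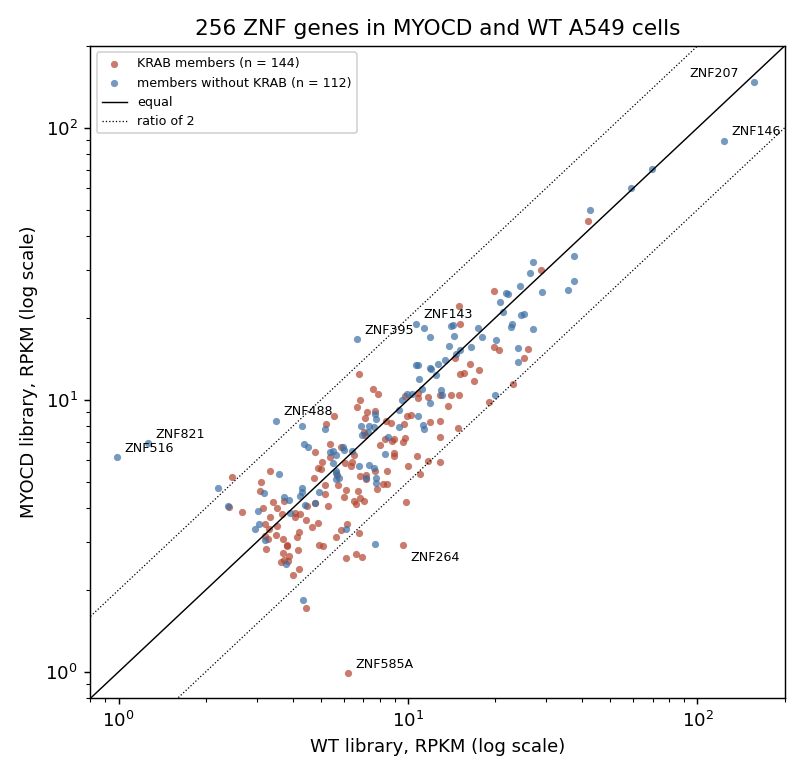
RPKM of each of the 256 ZNF members in the MYOCD library (vertical, log scale) against the WT library (horizontal, log scale), with 144 KRAB members in red and 112 members without KRAB in blue. The solid line marks equal values and the dotted lines a ratio of 2 of the RPKM, and most red points lie below the solid line.

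KRAB genes made up 33 of the 40 members that stood lower by 1.5-fold. A KRAB domain was found in 144 members, 134 with KRAB alone and 10 with both KRAB and SCAN, and 8 of the other 112 had a SCAN domain alone. Some KRAB domains were missed, since 2 of the 7 ZKSCAN genes, which are named for KRAB and SCAN, gave a KRAB match, so members without KRAB are those with no match. The 144 KRAB members had a median log2 ratio of -0.27, with 103 below 0 and 41 above, and summed to 998 RPKM in MYOCD and 1192 RPKM in WT. The 112 members without KRAB had a median of 0.05, with 49 below 0 and 63 above, and summed to 1607 RPKM in MYOCD and 1655 RPKM in WT. At 1.5-fold, 33 KRAB members (22.9%) stood lower in MYOCD, 10 of them with under 3 RPKM there, and 7 (4.86%) stood higher, and of the members without KRAB 7 stood lower and 10 higher. By class the median was -0.26 for KRAB alone, -0.47 for KRAB with SCAN, -0.03 for SCAN alone (0.06 with the reference-gene centring) and 0.05 for neither. These are counts in 1 pair of libraries, and the difference between the classes was not tested. With the reference-gene centring the KRAB members split into 28 lower and 11 higher at 1.5-fold. Under every scaling tried the median of KRAB alone stayed below 0 and that of neither stayed above 0. The members without KRAB whose exons overlap no other gene had a median of -0.00 (n = 54), and the KRAB members without overlap one of -0.33 (n = 69).

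**Figure D3:**
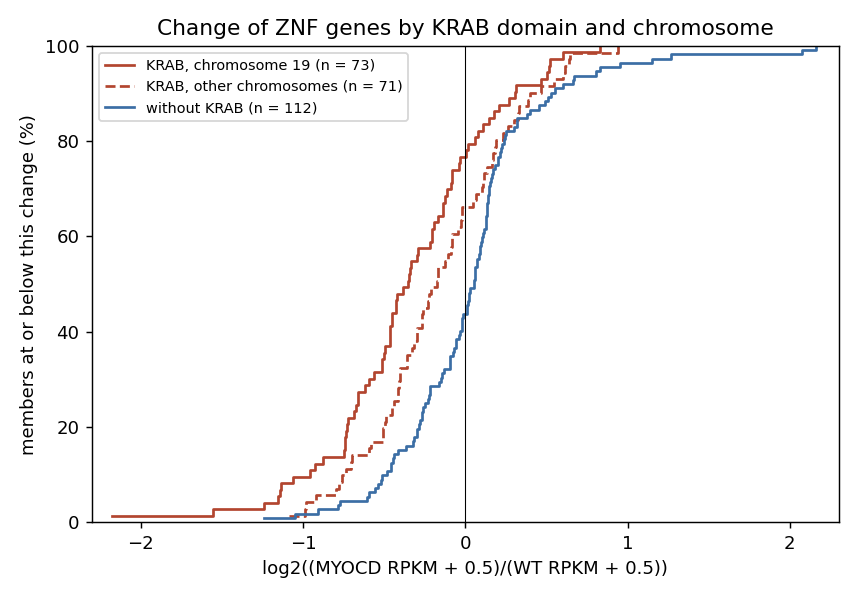
Cumulative percentage of ZNF members (vertical) at or below each log2 ratio of MYOCD to WT (horizontal) for KRAB members on chromosome 19 (n = 73), KRAB members elsewhere (n = 71) and members without KRAB (n = 112). The ratio lies below 0 in 56, 47 and 49 genes of these groups, and the KRAB curves run to the left of the curve of members without KRAB over most of the range.

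The median of KRAB members was below 0 at each level of expression. At a mean of 3 to 5 RPKM the median log2 ratio was -0.23 for 53 KRAB members, 0.13 for 22 members without KRAB and -0.01 for 977 protein-coding genes. At 5 to 10 RPKM it was -0.21 for 62 KRAB members, 0.03 for 38 without KRAB and 0.00 for 1953 protein-coding genes. At 10 RPKM or more it was -0.34 for 29 KRAB members, 0.02 for 52 without KRAB and 0.01 for 7459 protein-coding genes. Of those 29, 7 (24.1%) stood lower by 1.5-fold and 0 higher, beside 4.99% of those protein-coding genes lower and 4.88% higher. At 3 to 5 RPKM 22.6% of KRAB members stood lower and 7.55% higher, beside 13.0% and 13.5% of protein-coding genes. At 5 to 10 RPKM the shares were 22.6% and 4.84%, beside 9.93% and 10.1%. The 2 classes did not part below the threshold. At a mean of 1 to 3 RPKM, 86 KRAB genes of the same symbols had a median of -0.26 and 24 genes without KRAB one of -0.27, beside -0.01 for 1631 protein-coding genes. There 22 of the 86 KRAB genes stood lower by 1.5-fold and 2 higher, beside 18% of protein-coding genes lower and 15.9% higher. Besides the ZNF symbols only ZBTB, ZSCAN, ZKSCAN and ZFP symbols were searched for domains. Among these the models matched a KRAB domain in 5 genes with a mean of at least 3 RPKM, with a median of -0.09. KRAB genes with other names were not searched.

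The members were also described by their zinc fingers and base composition. A C2H2 finger pattern was found in 251 of the 256 members, and ZNF462 had the most, 33. The 5 with none, which were named after their values were seen, were ZNF330, ZNF503, ZNF703, ZNF720 and ZNF839. Among KRAB members the median log2 ratio was -0.17 for 60 genes with up to 10 fingers, of which 10 (16.7%) stood lower by 1.5-fold and 4 (6.67%) higher. It was -0.30 for 51 genes with 11 to 15 fingers, of which 10 (19.6%) stood lower and 3 (5.88%) higher. For 33 genes with 16 or more it was -0.36, and 13 (39.4%) stood lower and 0 higher. Of those 13, ZNF585A, ZNF569, ZNF845, ZNF717 and ZNF624 passed the mean of 3 RPKM only through WT and so had to stand lower. The same holds for ZNF264 and ZNF300 with 11 to 15 fingers, and for ZNF614, ZNF776 and ZNF529 with up to 10. ZNF74 and ZNF250, with 11 to 15, passed only through MYOCD and had to stand higher. Of protein-coding genes 6.67% stood lower and 6.67% higher, a background pooled over all levels from 3 RPKM and not matched to the level of these members. The median transcript GC content of the finger groups was 44.4%, 44.3% and 40.6% in the same order. A relation of the ratio to fingers apart from GC was not tested. The 4 members with at least 30 fingers have no KRAB match, and of these ZNF462 had a ratio of 0.83, ZNF142 one of 0.13, ZNF646 one of 0.24 and ZNF236 one of -1.24. The median transcript GC content was 42.95% for KRAB members and 51.8% for members without KRAB. Other protein-coding genes had a median ratio of -0.08 in the tenth of lowest GC and 0.08 in the tenth of highest GC. After subtraction of the median of the tenth each gene lies in, the median was -0.26 for KRAB members and 0.01 for members without KRAB. The uncentred ratios of KRAB members were not alike along the GC range. In the 5 bins of lowest GC, of 10, their medians were -0.34, -0.35, -0.39, -0.17 and -0.26, against -0.04, -0.09, -0.08, -0.12 and 0.11 without KRAB. In bins 6 to 9, which held 11, 3, 5 and 4 KRAB members, their medians were -0.02, -0.03, -0.09 and -0.00, against -0.06, 0.15, 0.10 and 0.11 without KRAB. In the bin of highest GC it was -0.30 for 5 KRAB members, against 0.07 for 25 without KRAB.

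Chromosome 19 held 95 of the members, and their median log2 ratio was -0.30, with 25 (26.3%) lower by 1.5-fold and 2 (2.11%) higher, ZNF101 and ZNF584. Of protein-coding genes 6.67% stood each way. Of the 25, ZNF585A, ZNF264, ZNF569, ZNF614, ZNF776, ZNF845, ZNF529 and ZNF653 passed the mean of 3 RPKM only through WT and so had to stand lower. The 161 members on other chromosomes had a median of -0.03, with 15 lower and 15 higher (9.32% each), and this median became 0.06 with the reference-gene centring. Among those, ZNF236, ZNF717, ZNF624 and ZNF300 likewise had to stand lower. ZNF516, ZNF821, ZNF74, ZNF48, ZNF280B and ZNF250 passed only through MYOCD and had to stand higher. The 73 KRAB members on chromosome 19 had a median of -0.35, with 56 below 0, against -0.18 for the 71 KRAB members elsewhere, with 47 below 0. The 22 members without KRAB on chromosome 19 had a median of -0.00, and 617 other protein-coding genes of that chromosome had one of 0.03, with 62 lower and 41 higher by 1.5-fold. Of the 25 chromosome 19 members lower by 1.5-fold, 22 were KRAB genes, beside 73 of all 95. Of the other chromosomes with at least 10 members, chromosome 12 had a median of -0.33 (n = 10), chromosome 7 one of -0.11 (n = 21), chromosome 1 one of 0.01 (n = 12) and chromosome 16 one of 0.14 (n = 22).

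Members on chromosome 19 formed 15 runs with no gap over 1 Mb, and 5 of these runs held at least 5 members and 73 in all (GRCh38, GENCODE 29). The run at chr19:51571298-53580269 had 9 members, all of them KRAB genes, and the lowest median of these 5 runs, -0.66. In it 8 members lay below 0, and 5 stood lower by 1.5-fold, ZNF614, ZNF160, ZNF761, ZNF845 and ZNF765. The run at chr19:36214602-37817300 had 13 members and a median of -0.46. In it 12 lay below 0, and 5 stood lower by 1.5-fold, ZNF585A, ZNF569, ZNF260, ZNF461 and ZNF529. The run at chr19:43596392-44500524 had 11 members and a median of -0.38, with ZNF226 (9.78 RPKM in MYOCD, 19.02 in WT), ZNF227, ZNF45 and ZNF283 lower by 1.5-fold. The run at chr19:7515292-9675086 had 9 members and a median of -0.19, with ZNF559 and ZNF266 lower by 1.5-fold. None of these 4 runs had a member higher by 1.5-fold. The shares lower were 55.6%, 38.5%, 36.4% and 22.2% in the order given, beside 6.67% of protein-coding genes in each direction. That background is pooled over all levels from 3 RPKM and not matched to the level of these members. The run nearest the end of the long arm, chr19:55476332-58481230, was mixed. Its 31 members had a median of -0.04, with 16 below 0. By 1.5-fold ZNF264, ZNF776, ZNF544, ZNF551 and ZNF134 stood lower (16.1%) and ZNF584 (12.4 RPKM in MYOCD, 6.78 in WT) higher (3.23%). Of the lower members named in these 5 runs, ZNF614, ZNF845, ZNF585A, ZNF569, ZNF529, ZNF264 and ZNF776 had under 3 RPKM in MYOCD. These passed the mean of 3 RPKM only through WT and so had to stand lower.

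**Figure D4:**
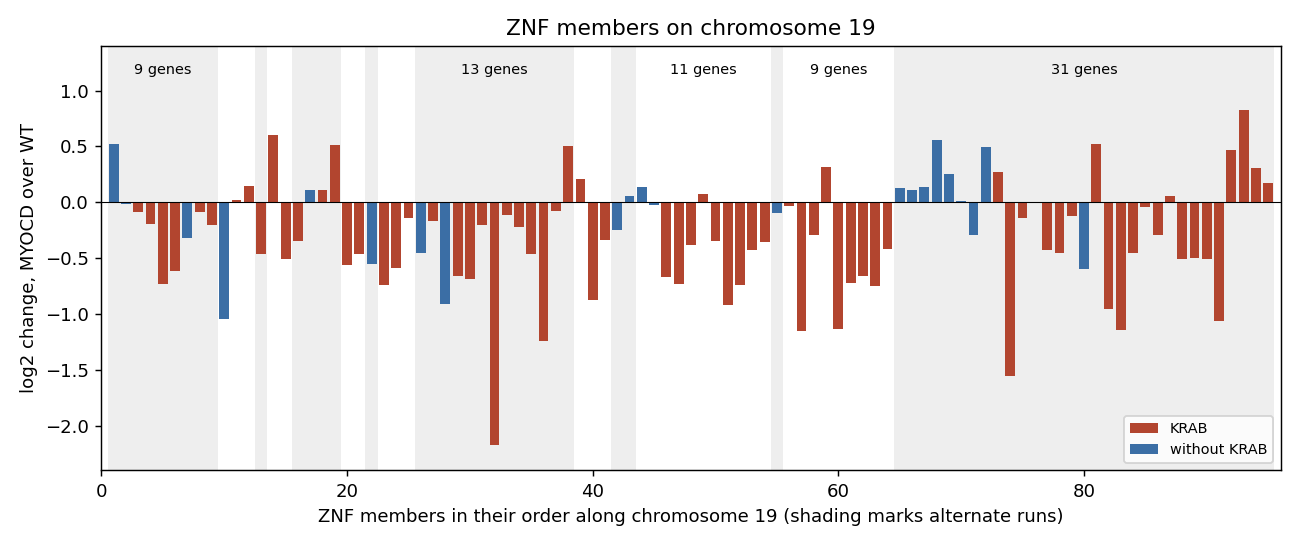
Log2 ratio of MYOCD to WT (vertical) of the 95 ZNF members on chromosome 19 in their order along it (horizontal), KRAB members in red and members without KRAB in blue, with shading for alternate runs and the size of each run of at least 5. Bars point down through most of the runs of 13, 11 and 9 genes and in both directions in the run of 31.

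Of the 10 members lower by 2-fold, 8 are KRAB genes and 7 of those lie on chromosome 19. Among all 256 members 144 are KRAB genes and 95 lie on chromosome 19. In 8 of the 10, all but ZNF160 and ZNF544, the MYOCD value was under 3 RPKM. These passed the mean of 3 RPKM only through WT and so had to stand lower, and the counts describe them and no more. ZNF585A (ENSG00000196967, chr19:37106734-37172741, minus strand, 21 fingers) had 0.987 RPKM in MYOCD and 6.23 RPKM in WT, a log2 ratio of -2.18. Its neighbour and near copy ZNF585B, also with 21 fingers, had 3.18 RPKM in MYOCD and 3.49 RPKM in WT, a log2 ratio of -0.12. The log2 ratio of ZNF585A minus that of ZNF585B was -2.06, exons of both overlap those of AC012309.1 on the same strand, and no source used here says how reads shared by the copies were counted. The RefSeq promoter windows of the pair (GRCh38.p14, minus strand, 250 bases before and 50 bases after a start) are shown because the copies had unlike ratios and these windows resemble each other. Capitals mark the letters CCGGAAGT, the core bound by ETS factors such as GABPA, found on either strand. Where a gene had a window with these letters, such a window was taken, so their presence in a window shown is no result.
ZNF585A, chr19:37172646-37172945: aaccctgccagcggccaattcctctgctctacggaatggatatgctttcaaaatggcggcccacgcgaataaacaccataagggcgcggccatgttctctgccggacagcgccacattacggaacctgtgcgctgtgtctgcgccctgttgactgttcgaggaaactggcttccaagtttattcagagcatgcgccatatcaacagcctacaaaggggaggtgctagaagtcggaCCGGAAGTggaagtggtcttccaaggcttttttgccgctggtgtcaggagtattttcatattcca
ZNF585B, chr19:37210487-37210786: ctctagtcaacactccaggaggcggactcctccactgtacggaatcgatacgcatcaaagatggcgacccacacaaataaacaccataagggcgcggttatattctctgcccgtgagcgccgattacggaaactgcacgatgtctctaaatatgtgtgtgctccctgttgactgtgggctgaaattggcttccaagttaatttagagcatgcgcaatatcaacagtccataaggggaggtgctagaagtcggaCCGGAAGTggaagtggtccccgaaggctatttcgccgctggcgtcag
Of 297 columns of a local alignment 237 (79.8%) were identical and 20 held a gap. Each window held the ETS letters once, and the choice of window required a match.

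ZNF264 (ENSG00000083844, chr19:57191500-57222846, plus strand, 13 fingers) had 2.94 RPKM in MYOCD and 9.61 RPKM in WT, a log2 ratio of -1.56. It had the lowest ratio among members whose exons overlap no other gene. Its promoter window, shown as that of such a gene and also taken for its ETS letters, held them on the opposite strand (ACTTCCGG, in capitals).
ZNF264, chr19:57191250-57191549, plus strand: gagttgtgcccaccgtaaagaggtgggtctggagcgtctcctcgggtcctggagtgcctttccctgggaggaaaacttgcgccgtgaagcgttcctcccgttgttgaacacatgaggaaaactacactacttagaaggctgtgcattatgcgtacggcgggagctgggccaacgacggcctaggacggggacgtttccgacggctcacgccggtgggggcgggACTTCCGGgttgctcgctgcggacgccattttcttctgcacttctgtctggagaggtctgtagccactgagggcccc
The next KRAB genes on chromosome 19 were ZNF569 (chr19:37411155-37469275), with 2.64 RPKM in MYOCD and 6.92 RPKM in WT, and ZNF614 (chr19:52012765-52030240), with 1.72 RPKM in MYOCD and 4.43 RPKM in WT. ZNF160 (chr19:53066606-53103436), whose exons overlap no other gene, had 4.22 RPKM in MYOCD and 9.88 RPKM in WT, a log2 ratio of -1.14. ZNF776 (chr19:57746796-57758159) had 2.72 RPKM in MYOCD and 6.61 RPKM in WT, and ZNF544 (chr19:58228594-58277495) had 5.90 RPKM in MYOCD and 12.9 RPKM in WT. Both share exon bases with a gene known only by its clone name on the same strand, AC003006.1 for ZNF776 and AC020915.5 for ZNF544. ZNF717, the KRAB gene on chromosome 3 (chr3:75678660-75785583), had 2.63 RPKM in MYOCD and 6.13 RPKM in WT.

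The 2 members without KRAB that were lower by 2-fold were ZNF236 and ZNF653. ZNF236 (ENSG00000130856, chr18:76822607-76970727) has 30 fingers, and it had 2.96 RPKM in MYOCD and 7.68 RPKM in WT, a log2 ratio of -1.24. ZNF653 (chr19:11483427-11505923) shares exon bases with ECSIT on the same strand and had 1.83 RPKM in MYOCD and 4.32 RPKM in WT. With a pseudocount of 1 RPKM, ZNF614, ZNF653 and ZNF717 were no longer past 2-fold, and with the reference-gene centring ZNF544, ZNF653 and ZNF717 were not. At 1.5-fold the most abundant of the lower members besides the SCAN gene ZNF24, chosen after their values were seen, were ZNF302 (15.4 RPKM in MYOCD, 26.0 in WT), ZNF282 (14.3 RPKM in MYOCD, 25.1 in WT), ZNF518A (13.7 RPKM in MYOCD, 24.1 in WT) and ZNF75A (11.4 RPKM in MYOCD, 23.1 in WT). ZNF302 and ZNF282 are KRAB genes, ZNF75A has KRAB and SCAN and ZNF518A has neither.

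The 4 members higher by 2-fold in MYOCD all lacked a KRAB match, as did 112 of all 256 members. In 2 of the 4, ZNF516 and ZNF821, the WT value was under 3 RPKM. These passed the mean of 3 RPKM only through MYOCD and so had to stand higher. ZNF516 (ENSG00000101493, chr18:76358190-76495190, minus strand, 10 fingers) is a partner of the corepressor CtBP, and its mouse counterpart activates the thermogenic gene Ucp1 in brown fat. It had 6.15 RPKM in MYOCD and 0.986 RPKM in WT, a log2 ratio of 2.16, and its exons overlap no other gene. Of the 6 members on chromosome 18, it was the only one with a ratio above 0. The promoter window of ZNF516 is shown as that of the member with the highest ratio. It held no ETS match, and capitals are therefore absent, while 81.7% of its bases are G or C, against 53% in the window of ZNF585A.
ZNF516, chr18:76495193-76495492, minus strand: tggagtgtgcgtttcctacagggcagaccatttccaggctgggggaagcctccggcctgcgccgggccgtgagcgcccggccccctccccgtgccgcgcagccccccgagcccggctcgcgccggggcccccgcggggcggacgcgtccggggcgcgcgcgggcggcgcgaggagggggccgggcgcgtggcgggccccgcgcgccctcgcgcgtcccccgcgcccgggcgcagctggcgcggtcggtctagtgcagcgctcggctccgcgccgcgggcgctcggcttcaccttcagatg
ZNF821 (chr16:71859680-71895336) had 6.92 RPKM in MYOCD and 1.26 RPKM in WT, a log2 ratio of 2.07, and shares exon bases with ATXN1L and IST1 on the opposite strand. ZNF395, also called papillomavirus binding factor, had 16.7 RPKM in MYOCD and 6.65 RPKM in WT and shares exon bases with FBXO16 on its own strand. ZNF488 (chr10:47365496-47384273), whose mouse counterpart promotes the forming of oligodendrocytes, had 8.37 RPKM in MYOCD and 3.50 RPKM in WT, with no overlapping exon. ZNF516 and ZNF488 were thus the members of these 4 whose exons overlap no other gene.

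The 12 listed genes that act on RNA, ribosomes and the spindle were all members, with a median log2 ratio of 0.02, 8 above 0 and 4 below. None of them differed by 1.5-fold, beside 6.67% of protein-coding genes in each direction, and in a list this short such a count is near that background. Besides ZNF207, ZNF706 and ZNF638, the most abundant was ZNF598, the ubiquitin ligase that senses collided ribosomes, with 24.6 RPKM in MYOCD and 22.2 RPKM in WT. Of the 12 activators and promoter factors, with a median of -0.18, 1 stood higher and 1 lower by 1.5-fold (8.33% each way, beside 6.67%). ZNF143, which binds many promoters and activates small nuclear RNA genes, had 19.03 RPKM in MYOCD and 10.7 RPKM in WT, a log2 ratio of 0.80. Its relative ZNF76 had 5.16 RPKM in MYOCD and 7.17 RPKM in WT, a log2 ratio of -0.44, so the ratios of the pair lay on opposite sides of 0. ZNF24, a SCAN protein known as a repressor of VEGFA, had 15.6 RPKM in MYOCD and 23.9 RPKM in WT. ZNF410, an activator of the chromatin remodeler gene CHD4, had 29.4 RPKM in MYOCD and 26.5 RPKM in WT. The target CHD4 itself had 138 RPKM in MYOCD and 124 RPKM in WT. The most abundant others of this list were ZNF281 (given above), ZNF384 (24.96 RPKM in MYOCD, 29.1 in WT) and ZNF131 (18.9 RPKM in MYOCD, 23.0 in WT).

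Of 16 listed corepressor and chromatin factors 13 were members, with a median log2 ratio of 0.07, and 2 stood higher (15.4%) and 1 lower (7.69%) by 1.5-fold, beside 6.67% each way. The higher ones were ZNF516 and ZNF462, the gene with 33 fingers, whose loss causes a developmental and craniofacial syndrome in humans, which had 8.005 RPKM in MYOCD and 4.29 RPKM in WT. ZNF516 had under 3 RPKM in WT, so it passed the mean of 3 RPKM only through MYOCD and had to stand higher. The lower one was ZNF703, a corepressor gene amplified in luminal breast cancers, with 3.36 RPKM in MYOCD and 6.08 RPKM in WT. The most abundant was ZNF217, a subunit of CoREST and CtBP complexes, with 26.1 RPKM in MYOCD and 24.3 RPKM in WT. ZNF532 (20.6 RPKM in MYOCD, 25.1 in WT) and ZNF592 (11.96 RPKM in MYOCD, 10.9 in WT), which bind ZMYND8 in 1 complex with ZNF687, differed by less than 1.5-fold. ZNF644, a partner of the histone methyltransferase G9a, had 16.6 RPKM in MYOCD and 20.1 RPKM in WT, and ZNF219 had 18.4 RPKM in MYOCD and 17.4 RPKM in WT. ZNF521 and ZNF536 were listed at 0 in both libraries and ZNF423 was under 1 RPKM in both.

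Of 19 listed KRAB genes whose targets are described, 12 were members, with a median log2 ratio of -0.42, 9 below 0 and 3 above, and 1 stood lower by 1.5-fold (8.33%) and 0 higher, beside 6.67% each way. That 1 was ZNF268, with 5.32 RPKM in MYOCD and 10.98 RPKM in WT, a log2 ratio of -0.98. The most abundant was the imprinted gene ZNF331, with 15.3 RPKM in MYOCD and 20.6 RPKM in WT. ZNF587 had 11.7 RPKM in MYOCD and 16.9 RPKM in WT, and its near copies ZNF587B (12.6 RPKM in MYOCD, 15.6 in WT) and ZNF417 (2.81 RPKM in MYOCD, 4.17 in WT) lay on the same side. ZNF587 and ZNF417 bind endogenous retroviruses of the HERV-K family. ZNF746, also called PARIS, a repressor of PPARGC1A, had 10.4 RPKM in MYOCD and 14.1 RPKM in WT. ZNF274, which binds the 3' ends of ZNF genes and recruits SETDB1 there, had 8.26 RPKM in MYOCD and 11.9 RPKM in WT. ZNF445, a guardian of imprints, had 4.01 RPKM in MYOCD and 3.53 RPKM in WT. Under the threshold, ZNF350, a partner of BRCA1, had 1.06 RPKM in MYOCD and 3.21 RPKM in WT, and ZNF10, whose KRAB domain is used in gene silencing tools, had 1.51 RPKM in MYOCD and 2.28 RPKM in WT. ZNF77 had 1.68 RPKM in MYOCD and 1.26 RPKM in WT, on the other side of 0. ZNF91 was under 1 RPKM in both libraries and ZNF93 was listed at 0 in both, both being silencers of hominoid retroelements.

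Of 13 listed pairs of related genes, 10 had both genes among the members. The pair furthest apart, ZNF585A and ZNF585B (-2.18 and -0.12), lay within 1 run on chromosome 19. So did each of the closest pairs, ZNF587 with ZNF417 and ZNF845 with ZNF761. ZNF845 (2.89 RPKM in MYOCD, 5.10 in WT) and ZNF761 (5.73 RPKM in MYOCD, 9.97 in WT) had log2 ratios of -0.72 and -0.75. ZNF587 and ZNF417 had ratios of -0.51 and -0.50, and reads of such copies could be shared between them. In 5 pairs the 2 genes lay on opposite sides of 0. These were ZNF143 and ZNF76, ZNF148 and ZNF281 (0.30 and -0.44), ZNF703 and ZNF503 (-0.77 and 0.20), ZNF592 and ZNF687 (0.13 and -0.30), and ZNF720 and ZNF267 (0.46 and -0.23). In ZNF280C and ZNF280D both ratios were below 0 (-0.37 and -0.48).

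The partners through which KRAB proteins silence DNA had mostly ratios above 0. Of 24 listed names 23 were found, TASOR being listed under its older symbol FAM208A, and ZNF274 is both a partner and a member. The 23 had a median log2 ratio of 0.12, with 17 (73.9%) above 0 and 6 below, beside 50.6% of protein-coding genes above 0. By 1.5-fold 1 stood higher and 0 lower, against the background of 6.67% in each direction. Among protein-coding genes at 10 RPKM or more, the level of most of these partners, 4.88% stood higher and 4.99% lower. That gene was CHD3, a remodeler of the NuRD complex, with 89.2 RPKM in MYOCD and 42.2 RPKM in WT. TRIM28, the common partner of KRAB domains, had 630 RPKM in MYOCD and 579 RPKM in WT. CBX3, an HP1 protein, had 210 RPKM in MYOCD and 207 RPKM in WT, and the methyltransferase gene SETDB1 had 14.6 RPKM in MYOCD and 15.5 RPKM in WT. The levels of these 3 partners thus differed by less than 1.5-fold, as did those of MORC2 (17.5 RPKM in MYOCD, 12.8 in WT), FAM208A (44.1 RPKM in MYOCD, 31.1 in WT) and ATF7IP (11.9 RPKM in MYOCD, 15.3 in WT), which keep silenced chromatin closed or stabilise SETDB1.

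**Figure D5:**
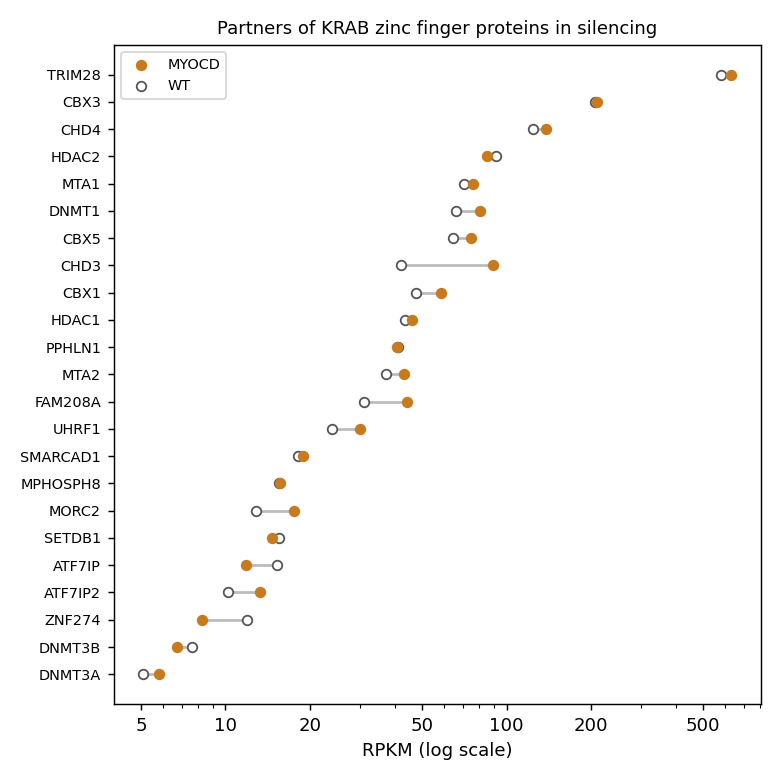
RPKM (log scale) of 23 partners of KRAB zinc finger proteins in the MYOCD library (filled) and the WT library (open), ordered by mean. CHD3 shows the widest gap, 89.2 RPKM in MYOCD and 42.2 RPKM in WT, and TRIM28 leads with 630 RPKM in MYOCD and 579 RPKM in WT.

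Of 15 partners of other named members 1 stood higher and 1 lower by 1.5-fold, a share of 6.67% each way, the same as the 6.67% over protein-coding genes, and the median log2 ratio was 0.05. KDM1A, the histone demethylase of the CoREST complex that ZNF217 joins, had 67.7 RPKM in MYOCD and 40.5 RPKM in WT, a log2 ratio of 0.73. SNAPC2, a subunit of the complex that works with ZNF143 at small nuclear RNA genes, had 9.65 RPKM in MYOCD and 24.7 RPKM in WT, a log2 ratio of -1.31. The most abundant were CCAR2, which works with ZNF326 (155 RPKM in MYOCD, 141 in WT), the ZNF207 partner BUB3 (111 RPKM in MYOCD, 107 in WT) and EIF4E2, which represses translation with GIGYF2 and ZNF598 (74.1 RPKM in MYOCD, 96.9 in WT).

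Promoter windows of the members were searched for short motifs on both strands. RefSeq windows matched 220 of the 256 members by symbol, with 289 windows, since some genes have several starts, out of 35116 windows in all. The latter belong to 27305 symbols taken whatever their expression, so they are no background matched to the members. The median GC content of windows was 61% for KRAB members, 66.8% for members without KRAB and 58.7% for all. The ETS letters CCGGAAGT were in 22.1% of 163 windows of KRAB members, 13.5% of 126 windows of members without KRAB and 4.14% of all windows. The letters CCAAT, bound by NF-Y, were in 49.7% of KRAB windows, 31.7% of windows without KRAB and 34.6% of all. The GC box letters GGGCGG were in 50.9% of KRAB windows, 71.4% of windows without KRAB and 45.0% of all. The letters AAGATGGC, part of the site of YY1, were in 6.13% of KRAB windows, 5.56% of windows without KRAB and 2.89% of all. The letters ACTACAA, the core of the site of ZNF143, were in 7.36% of KRAB windows, 7.14% of windows without KRAB and 2.77% of all. The CArG box, the site of SRF, the factor that myocardin joins, was in 1 KRAB window (ZNF562), 1 window without KRAB (ZNF687) and 1.29% of all windows. Each motif was counted on its own, matches of different motifs may share bases, windows of 1 gene may overlap, and a match describes letters and not binding. In the 40 windows of KRAB members lower by 1.5-fold, the ETS letters were in 30%, CCAAT in 50%, the GC box in 50%, the YY1 letters in 7.5%, the ZNF143 core in 5% and the CArG box in 0.

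Families of zinc finger genes with other names were set beside the members, at the same mean of at least 3 RPKM. Of 29 ZBTB genes, which carry a BTB domain, 0 stood higher and 3 (10.3%) lower by 1.5-fold, beside 6.67% of protein-coding genes each way, with a median log2 ratio of 0.02. Those 3, chosen after their values were seen, were ZBTB43 (5.02 RPKM in MYOCD, 17.7 in WT), ZBTB1 (13.3 RPKM in MYOCD, 26.7 in WT) and ZBTB6 (4.47 RPKM in MYOCD, 8.91 in WT). Of 9 ZSCAN genes, with SCAN domains, 0 differed by 1.5-fold and the median was -0.25. The 3 ZKSCAN genes had a median of -0.13. Of 8 ZFP genes, with a median of 0.09, 1 stood lower, ZFP30 (3.995 RPKM in MYOCD, 7.54 in WT), a KRAB gene on chromosome 19.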

How the data were processed

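RNA-seq values of 2 libraries were used, 1 per group, with 1 gene per row. The authors deposited RPKM, per the file headers, and the key at the head of the table names each column's group. The submitters' processing notes name Bowtie 0.12.2 and the builds mm8, a mouse assembly, and GRCh38.p12, with no role. The sources used here do not name the counting tool, its annotation or its use of strand. Libraries were made with a TruSeq RNA kit from Trizol-extracted RNA, per the labels' protocols.

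RPKM holds no counts. The step of 1 read was searched in low values of genes with 1 transcript of at least 2000 nt. Only 33.3% of 69 values in MYOCD and 30.3% of 611 in WT lay within 0.1 of a whole multiple, where chance gives 20%, so reads were not recovered, depth is unknown and no count test or interval was made. The ratio is log2((MYOCD + 0.5)/(WT + 0.5)). It understates differences of low genes. Thresholds of 2-fold and 1.5-fold apply to it and mark size, not significance.

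Gene positions, exon overlap, transcript GC content and coding sequences came from GENCODE 29, which held 57375 of the 57979 identifiers and all 256 members. Proteins of ZNF, ZBTB, ZSCAN, ZKSCAN and ZFP symbols alone were translated, and C2H2 fingers were matched in them by spacing. KRAB and SCAN domains were found with profile models (pyhmmer 0.12.3, E-value up to 1e-05) built from 102 KRAB and 7 SCAN seed matches. A gene counted as KRAB if any of its proteins had a match, and divergent KRAB domains were missed. The seed matches were aligned with mafft 7.526. Promoter windows and their positions are those of RefSeq on GRCh38.p14, and the pair was aligned locally with the pairwise aligner of Biopython. Summaries were made with Python 3.11.15, pandas 2.3.3 and numpy 2.4.6, and tested on simulated data.

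The members and lists were chosen with earlier results of these data known. Genes named were members at 2-fold or more, the 10 highest means, 3 on either side of the threshold, the 4 most abundant of each role list, the 3 most abundant of each partner list, list or run members at 1.5-fold or more, and related pairs. Alternatives were other pseudocounts, scalings and minimum means, exon overlap left out, GC centring and domains from the longest protein alone.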

Additional observations from a re-analysis of the deposited data

How the results depend on the processing

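No paired analysis was possible because each group has 1 library, and no library could be left out. Depth is unknown, so counting error could not be set beside any ratio. GC centring and domains from the longest protein alone were chosen after seeing the data. The minimum mean set the counts most. With a mean of at least 1, 5 or 10 RPKM or no minimum, there were 366, 181, 81 or 513 genes. At 2-fold, 22, 4, 0 and 26 of these stood lower, and a mean of at least 5 or 10 RPKM left 2 and 1 higher. At 1.5-fold, 65, 26, 10 and 78 stood lower, and 5 or 10 RPKM left 9 and 3 higher. KRAB genes lower by 1.5-fold numbered 55, 21, 7 and 67 in the same order, and those higher 3 at 5 RPKM, 0 at 10 RPKM and 11 with no minimum. Without the members whose exons overlap another gene (123 left), 2 stood higher and 4 lower at 2-fold, 8 higher and 21 lower at 1.5-fold, and 17 KRAB members lower. A pseudocount of 1 RPKM left 10 members and 2 KRAB members higher by 1.5-fold, and the reference-gene centring gave 11 KRAB members higher. With no minimum the median log2 ratio was -0.14 for KRAB alone and -0.18 for chromosome 19. It was -0.36 for KRAB with SCAN both with no minimum and at 1 RPKM. At 10 RPKM it was 0.090 for SCAN alone. Of the other 141 alternative values, counts stayed within 1.5 times and medians within 0.1 of the values given, where medians near 0 could change sign (members on other chromosomes 0.01 at 10 RPKM). A pseudocount of 1 RPKM took ZNF614, ZNF653 and ZNF717 under 2-fold, and the reference-gene centring took ZNF544, ZNF653 and ZNF717 under it and ZNF48 and ZNF74 past it. A pseudocount of 0.1 RPKM took ZNF268, ZNF48, ZNF551, ZNF74 and ZNF75A past it.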
